A study of Mus musculus with 2 samples.

Results

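Sox genes encode transcription factors that bind DNA through an HMG box related to that of Sry, and 10 of them were followed here across cell groups of the newborn mouse pallium: Sox1, Sox2, Sox3, Sox4, Sox6, Sox8, Sox9, Sox10, Sox11 and Sox21. They were matched by symbol among the 32285 genes of the count files, which hold 9 other genes named Sox and a number. In neural tissue the SoxB1 factors (Sox1, Sox2, Sox3) are known for keeping progenitors undifferentiated, and Sox21, of the SoxB2 branch, for counteracting them. The SoxC factors (Sox4, Sox11) act in newborn neurons, the SoxD factor Sox6 in oligodendrocyte precursors and in interneurons of the medial ganglionic eminence (MGE), and the SoxE factors in glia: Sox9 in the glial fate switch and in astroglia, Sox10 in the oligodendrocyte lineage up to myelination, and Sox8 alongside both.

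The study birthdated wild-type mouse embryos at embryonic day 12 (E12), a neurogenic stage, with EdU, a thymidine analogue taken up by cells making DNA. The pups were killed at postnatal day 3 (P3), the pallium was dissected from pooled brains, and the brightest 10% of EdU-positive cells that excluded propidium iodide were sorted and captured in droplets for 3' single-cell RNA sequencing. The 2 libraries are replicates 1 and 2 of this single group, with no control or treatment, and all comparisons below are between cell groups within them. The labels do not tell whether the pups behind each library were different ones. Because the library is a block in the fits, the p-values below do not count a shift shared by all groups of a library. They speak of how far differences between groups vary from library to library, a spread that may be technical. The fits pool this spread over all groups and moderate it across genes. A small p-value or standard error is therefore possible where a gene's own folds differ between the 2 libraries.

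After removal of barcodes with fewer than 500 genes or over 10% mitochondrial UMIs (unique molecular identifiers), 11228 cells remained in replicate 1 and 10965 in replicate 2, with median UMIs of 7542.5 and 8523 per cell. The 2 libraries shared 40 barcode sequences among these cells. Groups were set by UMIs of marker genes that are no Sox genes and are called by them: Pdgfra (oligodendrocyte precursor marker, 3744 and 3844 cells in replicates 1 and 2), Enpp6 (newly forming oligodendrocytes, 17 and 33), Aqp4 (astroglia, 1533 and 1516), Eomes (intermediate progenitors, 118 and 176), Neurod (Neurod2 plus Neurod6, excitatory neurons, 936 and 888), Sp8 (neuroblasts, 418 and 466), Adarb2 (interneurons of the caudal ganglionic eminence, CGE, 298 and 301) and Sst (MGE interneurons, 24 and 21). A C1qa group of microglia and macrophages (124 and 140 cells), which should lack these Sox genes, served as the reference for free RNA. Of the check markers outside the gates, 6 of 6 were highest in the Pdgfra, Aqp4 and C1qa groups, 7 of 7 in the Enpp6 group, 5 of 6 in Sp8 and 4 of 6 in Sst. In the Eomes, Neurod and Adarb2 groups 3 of 6 were, with Neurod1, Tbr1 and Slc17a6 higher in the Eomes than in the Neurod group and Gad2 higher in the Sp8 than in the Adarb2 group, so these names are used only for the gates. Median depth ran from 2361.5 and 2540 UMIs in the Sst group to 16492 and 15525 in the Enpp6 group, and the C1qa group had 12327 and 14389. Free RNA can make up a larger share of the UMIs of shallow cells, and thinning cells to equal depth, as below, does not change that share. The C1qa group may therefore understate free RNA in the groups shallower than it.

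Sox4 and Sox11 had the most similar levels of all Sox pairs across 8 groups without Enpp6, while Sox8 followed a glial pattern. The promoter stretches of these 3 genes are therefore shown. They come from RefSeq (GRCm38.p6) and are written 5′ to 3′ on the gene's strand. The Sox11 and Sox8 stretches end at the base before the RefSeq start (27342718 and 25570686), which for Sox11 lies upstream of the GENCODE start given below, and the Sox4 stretch was shortened to end before the GENCODE start at 28953713. Capitals mark matches on either strand to CCAAT or to the GC box GGGCGG.
Sox4, chr13:28953714-28953949, minus strand: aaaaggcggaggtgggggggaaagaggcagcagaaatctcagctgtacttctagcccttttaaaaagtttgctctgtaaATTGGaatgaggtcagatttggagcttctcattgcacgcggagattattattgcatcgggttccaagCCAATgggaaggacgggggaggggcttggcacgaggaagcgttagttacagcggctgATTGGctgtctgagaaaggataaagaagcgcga
Sox11, chr12:27342719-27342968, minus strand: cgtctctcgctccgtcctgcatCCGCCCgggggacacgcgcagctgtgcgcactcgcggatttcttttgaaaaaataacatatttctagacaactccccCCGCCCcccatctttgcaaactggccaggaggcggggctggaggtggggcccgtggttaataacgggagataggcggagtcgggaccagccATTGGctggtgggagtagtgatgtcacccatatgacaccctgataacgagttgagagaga
Sox8, chr17:25570687-25570936, minus strand: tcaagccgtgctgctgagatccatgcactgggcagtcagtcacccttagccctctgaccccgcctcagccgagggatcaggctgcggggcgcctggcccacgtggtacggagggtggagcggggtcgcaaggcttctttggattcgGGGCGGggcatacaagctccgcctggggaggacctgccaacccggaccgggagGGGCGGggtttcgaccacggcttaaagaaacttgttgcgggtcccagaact
The Sox4 stretch held 3 CCAAT matches and no GGGCGG match. The Sox11 stretch held 1 CCAAT and 2 GGGCGG matches, and the Sox8 stretch 2 GGGCGG matches and no CCAAT. Among 32851 RefSeq windows of 250 bases before a start, 33.8% held CCAAT and 32.7% held GGGCGG. The TATA box letters TATAAA, in 12.4% of the windows, and the Sox-type motif ACAATG, in 10.7%, both also searched on either strand, had no match in these 3 stretches. No match says only that these letters are not in this window. Promoter entries matched 7 of the 10 genes.

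In GENCODE M21 (GRCm38), Sox1 (8:12395295-12400126, plus strand), Sox2 (3:34650405-34652461, plus), Sox3 (X:60891366-60893430, minus), Sox4 (13:28948919-28953713, minus), Sox11 (12:27334264-27342574, minus) and Sox21 (14:118233232-118237030, minus) are single-exon genes. Sox6 (7:115470872-116038796, minus) has 25 merged exons, Sox8 (17:25565892-25570686, minus) and Sox9 (11:112782224-112787760, plus) have 3 each, and Sox10 (15:79154908-79165240, minus) has 5. Sox2 lies inside Sox2ot and Sox1 inside Sox1ot on the same strand, with 0 shared exon bases. Antisense 2810468N07Rik shares 10.6% of the Sox8 exon bases and Gm4675 18.8% of those of Sox21, so reads there could be split where counting ignored strand, and the sources used here do not give the strand setting. On the opposite strand Gm26735, which the count files do not list, covers 54.6% of the Sox4 exon bases.

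Sox2 was highest in the Aqp4 group, at 705 and 723 CPM (UMIs of the gene per 1000000 UMIs of the group) in replicates 1 and 2, followed by the Enpp6 group at 586 and 569 CPM. The Adarb2 group had 507 and 505 CPM, the Sp8 group 469 and 476, and the Pdgfra group 387 and 408. It stood at 235 and 332 CPM in the Sst group, 197 and 140 in the Eomes group, 95.6 and 86.3 in the Neurod group and 30.6 and 28.5 in the C1qa group. No neighbours in this order overlapped between libraries, and the Neurod group stood below the Sp8 and Adarb2 groups as well as below the Aqp4 group. With every cell thinned to 2000 UMIs, 70.9% and 73.1% of Aqp4 cells held a Sox2 UMI against 12.8% and 12.6% of Neurod cells and 3.31% and 6.43% of C1qa cells. Before thinning these shares, over both libraries, were 92.5%, 29.5% and 21.6%.

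Sox1 followed another order. Its levels were 135 and 357 CPM in the Sst group. The Adarb2 group had 142 and 145 and the Sp8 group 116 and 134. These 3 groups were set by interneuron and neuroblast markers, and no GABA synthesis gene was in their gates. The Aqp4 group had 55.0 and 60.2 CPM, the Eomes group 43.0 and 36.2, the Neurod group 16.7 and 22.7, and the Pdgfra group 15.8 and 17.8. The Sst and Adarb2 levels overlapped between libraries, as did those of the Neurod and Pdgfra groups, while the Sp8 and Aqp4 groups stood apart. Thinned shares of cells with Sox1 were 17.6% and 21.6% in the Sp8 group, 24.2% and 19.1% in the Adarb2 group and 2.71% and 3.19% in the Pdgfra group. None of the 50 Enpp6 cells kept a Sox1 UMI at this depth, and before thinning 5 of the 50 held one (10%, exact Clopper-Pearson 95% interval 3.33% to 21.8%).

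Sox3 and Sox21 were sparser. Sox3 reached 64.8 and 69.5 CPM in the Pdgfra group, 42.9 and 39.5 in the Aqp4 group and 47.6 and 28.3 in the Enpp6 group, and lay between 5.98 and 10.6 CPM in the Eomes, Neurod, Sp8 and Adarb2 groups. In the Sst group 5 UMIs of replicate 1 gave 56.1 CPM and replicate 2 had 0 UMIs, which allows up to 36.9 CPM. Sox21 was 109 and 128 CPM in the Aqp4 group, 82.2 and 98.5 in the Pdgfra group, 64.4 and 41.4 in the Enpp6 group and 36.6 and 41.2 in the Sp8 group. It stood at 16.1 and 15.2 CPM in the Adarb2 group and 15.2 and 14.2 in the Neurod group, where thinned shares were below 2% in every library. Both genes were thus glial in their highest levels, unlike Sox1.

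The SoxC pair had its highest levels in the neuronal groups. Sox4 was 2878 and 3418 CPM in the Adarb2 group, 2758 and 3127 in the Eomes group, 2810 and 2908 in the Sp8 group and 2593 and 2969 in the Neurod group, and these 4 groups overlapped in a chain. Below them came the Sst group at 1536 and 1820 CPM, the Pdgfra group at 716 and 778, the Enpp6 group at 538 and 622, the Aqp4 group at 391 and 417 and the C1qa group at 113 and 147. Sox11 was highest in the Eomes group, at 3651 and 4779 CPM, above the Neurod group (2872 and 3526), the Sp8 group (2673 and 3260), the Adarb2 group (1865 and 2632) and the Sst group (1188 and 1857). The 3 glial groups had between 171 and 341 CPM of Sox11. After thinning, 97.6% of Neurod cells held Sox4 and 96.8% Sox11, against 17.6% and 12.6% of C1qa cells. The glial shares of Sox4 and Sox11 (49.6% and 36.8% in the Aqp4 group) were above those of the C1qa cells at the same depth.

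**Figure D1:**
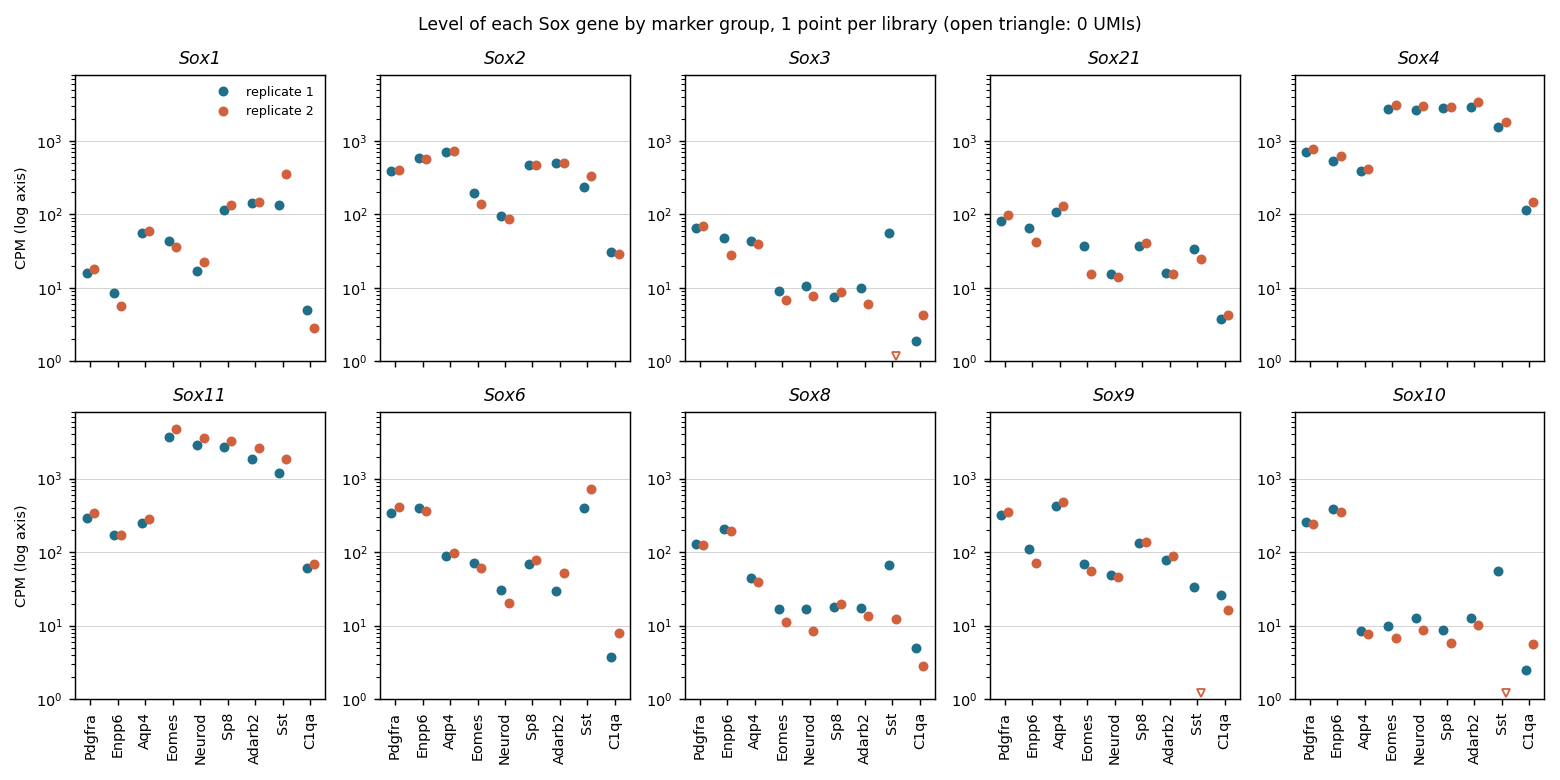
CPM of each Sox gene (log axis) in the 9 marker groups, 1 point per library, open triangles for 0 UMIs. Sox4 and Sox11 step down from the neuronal to the glial groups, Sox10 stands above 200 CPM in the Pdgfra and Enpp6 groups and at or below 56.1 CPM elsewhere.

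Sox6 had its highest levels in the Sst, Enpp6 and Pdgfra groups. It was 404 and 713 CPM in the Sst group, 398 and 365 in the Enpp6 group and 339 and 406 in the Pdgfra group, which overlapped between libraries. The Aqp4 group had 87.5 and 97.0 CPM, the Sp8 group 70.0 and 78.3, the Eomes group 70.7 and 61.1, the Adarb2 group 29.4 and 51.6 and the Neurod group 30.2 and 20.3. Thinned shares of cells with Sox6 were 66.7% and 87.5% in the Sst group, 52.4% and 54.9% in the Pdgfra group and 4.19% and 8.78% in the Adarb2 group.

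Among the SoxE genes, Sox10 was 389 and 354 CPM in the Enpp6 group and 257 and 241 in the Pdgfra group. In the Aqp4 group it was 8.54 and 7.61 CPM, and thinned shares there were 1.86% (exact Clopper-Pearson 95% interval 1.23% to 2.69%) and 1.52% (0.957% to 2.30%). The corresponding shares in C1qa cells were 0.826% (0.0209% to 4.52%) and 0.714% (0.0181% to 3.92%). They rest on too few cells to tell Sox10 in the Aqp4 group from free RNA at this depth. Without thinning, the C1qa group had 2.50 and 5.61 CPM of Sox10. Intervals and zero-count limits cover counting error only. Sox8 followed the same lineage, at 207 and 192 CPM in the Enpp6 group and 127 and 124 in the Pdgfra group, but with 43.8 and 39.7 CPM also in the Aqp4 group and 17.9 and 19.8 in the Sp8 group. Its thinned share of 8.93% and 7.89% in the Aqp4 group compares with 0 of 121 and 1 of 140 C1qa cells.

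Sox9 was 420 and 478 CPM in the Aqp4 group and 321 and 355 in the Pdgfra group, which did not overlap. It was 132 and 139 CPM in the Sp8 group, 109 and 71.6 in the Enpp6 group, 78.5 and 89.1 in the Adarb2 group, 69.8 and 56.1 in the Eomes group and 49.2 and 45.5 in the Neurod group. The C1qa group had 26.2 and 16.4 CPM. Thinned shares were 51.0% and 57.0% in the Aqp4 group, 42.4% and 44.0% in the Pdgfra group, 19.1% and 19.0% in the Sp8 group and 4.13% and 1.43% in the C1qa group. In the Sst group 0 of 31 thinned cells held Sox9, and before thinning 2 of 45 did, both in replicate 1 (4.44%, exact 95% interval 0.543% to 15.1%).

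**Figure D2:**
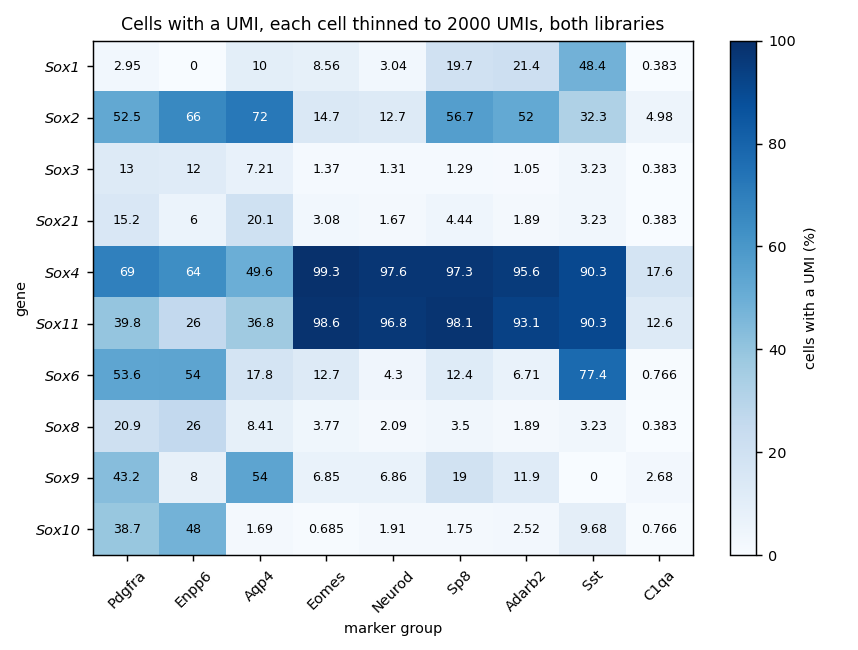
Percent of cells with at least 1 UMI of each Sox gene after thinning every cell to 2000 UMIs, both libraries together, by marker group. The Aqp4 column peaks at Sox2 (72%) and Sox9 (54%), the Pdgfra column adds Sox6 (53.6%) and Sox10 (38.7%), and the neuronal columns are above 90% for Sox4 and Sox11.

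In the Pdgfra group compared with the Aqp4 group, Sox10 was higher by 4.79 ± 0.09 on the log2 scale (± SE throughout, adjusted p = 2.98e-45), Sox6 by 1.85 ± 0.07, Sox8 by 1.43 ± 0.07, Sox4 by 0.73 ± 0.06 and Sox3 by 0.55 ± 0.07. Sox1 (log2 fold change -1.94 ± 0.08), Sox2 (-1.01 ± 0.06), Sox9 (-0.57 ± 0.06) and Sox21 (-0.55 ± 0.06) were lower, and Sox11 differed by 0.08 ± 0.07 (adjusted p = 0.282). That made 9 of 10 Sox genes called (5 higher, 4 lower), where 68.2% of the 13520 genes tested were called (35.3% higher, 33% lower), so the count itself does not set them apart. Their median log2 fold change was 0.31, against 0.02 over all genes. The test was edgeR's quasi-likelihood test on UMIs summed per library and group, with Benjamini-Hochberg adjustment over all genes. The Sox3 call was lost in DESeq2 (adjusted p = 0.0532).

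All 13 listed SoxB1 partner or target genes were lower in the Pdgfra than in the Aqp4 group (median -1.78), led by the Hedgehog effectors Gli3 (-3.48) and Gli2 (-3.46), the Notch target Hes5 (-3.14) and Pax6 (-3.10). In the myelin programme around Sox10, Gjb1 (5.18), Erbb3 (4.08) and Myrf (2.94), the myelin regulatory factor, passed the filter on low counts only through the Pdgfra group. Of the other 7 tested genes of that list 5 were higher and 1 lower (median 0.80), with Ugt8a at 3.97. Of the Sox9 and Nfi partner or target genes, the proteoglycan gene Acan (4.13) likewise passed only through the Pdgfra group, and of the other 7, 2 were higher and 5 lower (median -0.83), with Mmd2 at -2.51, S100b at 1.90 and Nfib at -0.87. Of 5 SoxC target genes, 4 were higher and 1 lower (median 0.88), with Tead2 at -3.05 and the microtubule gene Dcx at 2.53 the largest.

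Between the Aqp4 and Neurod groups, Sox9 (3.38 ± 0.08), Sox21 (3.15 ± 0.11), Sox2 (3.11 ± 0.07), Sox3 (2.30 ± 0.14), Sox6 (2.01 ± 0.11), Sox8 (1.87 ± 0.13) and Sox1 (1.68 ± 0.11) were higher in the Aqp4 group. Sox11 (-3.45 ± 0.07) and Sox4 (-2.65 ± 0.07) were lower, and Sox10 was at -0.27 ± 0.18 (adjusted p = 0.165). The 9 calls stand beside a background of 72.2% of genes called (39% higher, 33.2% lower), and the median was 1.94 over the Sox genes against 0.06 over all genes. Of the SoxB1 list, 11 of 13 were higher and 2 lower (median 2.57), led by Hes5 (4.26), the radial glial lipid carrier Fabp7 (3.61), Nr2e1 (3.58) and Notch1 (3.22). Of the 5 SoxC targets, Tubb3 (-4.68), Dcx (-4.58) and Map2 (-1.08), all of the neuronal microtubule system, were lower and Tead2 (2.17) higher (median -1.08). Of the 8 Sox9 and Nfi genes, 5 were higher and 2 lower (median 0.94), with Zcchc24 at 3.00, Mmd2 at 2.59, Nfix at -2.30 and Nfib at -1.57.

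The Neurod group is the reference again in the next comparisons, which therefore share its sums. Between the Sp8 and Neurod groups, Sox1 (2.83 ± 0.11), Sox2 (2.54 ± 0.08), Sox6 (1.72 ± 0.14), Sox9 (1.68 ± 0.10), Sox21 (1.57 ± 0.16), Sox8 (0.76 ± 0.20) and Sox4 (0.21 ± 0.06, adjusted p = 0.0051) were higher in the Sp8 group. Sox11 (0.05 ± 0.06), Sox3 (0.01 ± 0.25) and Sox10 (-0.41 ± 0.25) were not called. The 7 calls, all in the higher direction, stand beside 49.3% of genes called (23.9% higher, 25.4% lower), with a median of 1.16 against -0.04 over all genes. The Sox4 call was lost without the library block (adjusted p = 0.199) and the Sox8 call with a gate of 1 UMI (0.32, adjusted p = 0.155). Summed levels of the 6 astroglial check markers were 1463 and 1487 CPM in the Sp8 group and 2541 and 2105 in the Neurod group, and their part in these differences was not tested. By the score used below, 51.4% and 54.3% of the Sp8 cells were dividing (against 3.31% and 2.82% of Neurod cells), and 7 of 13 SoxB1 list genes were higher and 4 lower (median 0.87), with Pou3f4 at 2.81, Pax6 at 2.77, Vim at 2.14 and Notch1 at 1.82. With dividing cells left out, genes called over the whole table went from 6667 to 4208.

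The Eomes group differed less from the Neurod group. Its gate, however, allows Neurod2 and Neurod6, and 97 of 118 and 158 of 176 Eomes cells had 2 or more UMIs of them. Sox6 (1.36 ± 0.19), Sox1 (0.97 ± 0.20), Sox2 (0.86 ± 0.11), Sox21 (0.73 ± 0.25) and Sox11 (0.39 ± 0.07) were higher, with 5 of 10 called beside a background of 19.6% (10.1% higher, 9.53% lower) and a median of 0.39 against -0.02. Sox9 was at 0.38 ± 0.16 (adjusted p = 0.0888) and Sox4 at 0.08 ± 0.07. The calls of Sox11 (adjusted p = 0.0989) and Sox21 (0.0568) were lost without the library block, and with a gate of 1 UMI those of Sox2 (0.02, adjusted p = 0.902), Sox1 (0.33, adjusted p = 0.216) and Sox21, which turned to -0.09 (adjusted p = 0.816). The Sox21 call was also lost with a 5% mitochondrial limit (adjusted p = 0.0775) and with dividing cells left out (0.40, adjusted p = 0.523), and its fold was 1.31 without replicate 2 and 0.11 without replicate 1. Sox1 was at 1.37 and 0.65 in the same order. Eomes cells with fewer than 2 UMIs of Neurod2 plus Neurod6 (21 and 18 cells) had 392 and 276 CPM of Sox2 and 192 and 143 of Sox9. The 97 and 158 Eomes cells with 2 or more had 151 and 122 CPM of Sox2 and 41.0 and 44.5 of Sox9. Of the SoxB1 list 7 were higher and 1 lower (median 0.54), led by Pax6 (1.89), Gli2 (1.53), the stem cell surface gene Prom1 (1.28) and Notch1 (0.82).

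The Adarb2 group showed Sox1 (2.92 ± 0.13), Sox2 (2.55 ± 0.08), Sox9 (0.90 ± 0.14), Sox6 (0.80 ± 0.20) and Sox4 (0.25 ± 0.06) higher and Sox11 (-0.45 ± 0.07) lower than the Neurod group, a comparison added after the data had been seen. These 6 calls stand beside 27.8% of genes called (14.5% higher, 13.4% lower), with a median of 0.31 against -0.01. With Adarb2 cells that also carried Sp8 left out by exclusive gates, Sox6 was at 0.07 (adjusted p = 0.917). The Sox6 call was also lost in DESeq2 (adjusted p = 0.057) and with dividing cells left out (0.0656), and its log2 fold change was 0.03 without replicate 2 and 1.40 without replicate 1. The Sox4 call was lost without the library block (adjusted p = 0.171) and with exclusive gates (0.0603), and the Sox11 call with a gate of 1 UMI (-0.0049, adjusted p = 0.965).

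Sox6 set the Sst and Adarb2 groups apart, being 3.46 ± 0.29 higher in the Sst than in the Adarb2 group (adjusted p = 4.76e-14). Sox4 (-1.18 ± 0.12), Sox2 (-1.12 ± 0.23) and Sox11 (-0.84 ± 0.13) were lower. Sox9 was also called lower (adjusted p = 0.0109) but rests on 3 UMIs in all Sst cells against 276 in Adarb2 cells, a ratio of 0.208 (exact 95% interval 0.0427 to 0.615), and DESeq2 did not call it (adjusted p = 0.0552). Sox1 was at 0.48 ± 0.27 (adjusted p = 0.307), and Sox3, Sox8, Sox10 and Sox21 had 5 to 7 UMIs each in the Sst group. That made 5 of 10 called (1 higher, 4 lower) beside a background of 10.6% (4.14% higher, 6.41% lower), with a median of 0.56 against -0.38 over all genes. The median counts in Sox3, Sox8, Sox10 and Sox21, which were not called and had ratios of 3.83, 2.68, 2.59 and 1.88 on those few UMIs. In replicate 1 every Sox8 UMI lay in 1 of 24 Sst cells before thinning. That cell also held Sox2, Sox3, Sox9 and Sox10. RLE normalization and DESeq2 moved the median of all genes by 0.17 and 0.38, and the higher share among called genes from 39.2% to 53.1% and 66.0%. Sox6 had the same direction and stayed called under every alternative that could be fitted. The Adarb2 group also held dividing cells by the score used below (45 of 298 and 61 of 301) and cells that carried Sp8 as well (65 and 101).

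Against the Neurod group, Sst cells had higher Sox6 (4.25 ± 0.29), Sox1 (3.40 ± 0.34) and Sox2 (1.43 ± 0.29) and lower Sox11 (-1.29 ± 0.13) and Sox4 (-0.94 ± 0.12), 5 calls beside 8.12% of genes called (3.48% higher, 4.64% lower) and a median of 1.33 against -0.44, in a comparison also added after the data had been seen. The Sox6 fold was 3.58 without replicate 2 and 4.86 without replicate 1. The MGE factor Lhx6 had 280 and 393 CPM in Sst cells and 3 UMIs in all Adarb2 cells. It passed the filter on low counts only through the Sst group, and of the other 5 tested genes of the MGE list around Sox6, 3 were higher in Sst than in Adarb2 cells and none lower, with a median of 2.11, among them Npy (10.70) and Maf (2.11). Npy, Lhx6 and Maf are also check markers of the Sst gate. Prox1, a CGE factor on the SoxC target list, had 0 UMIs in Sst cells of both libraries and 82.7 and 90.2 CPM in Adarb2 cells, and Tubb3 (-1.84) and Map2 (-0.60) of that list were lower. The 45 Sst cells were shallow and had median mitochondrial shares of 5.70% and 6.51%, against 2.95% and 3.29% over all kept cells, and the part of this in these differences was not tested.

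**Figure D3:**
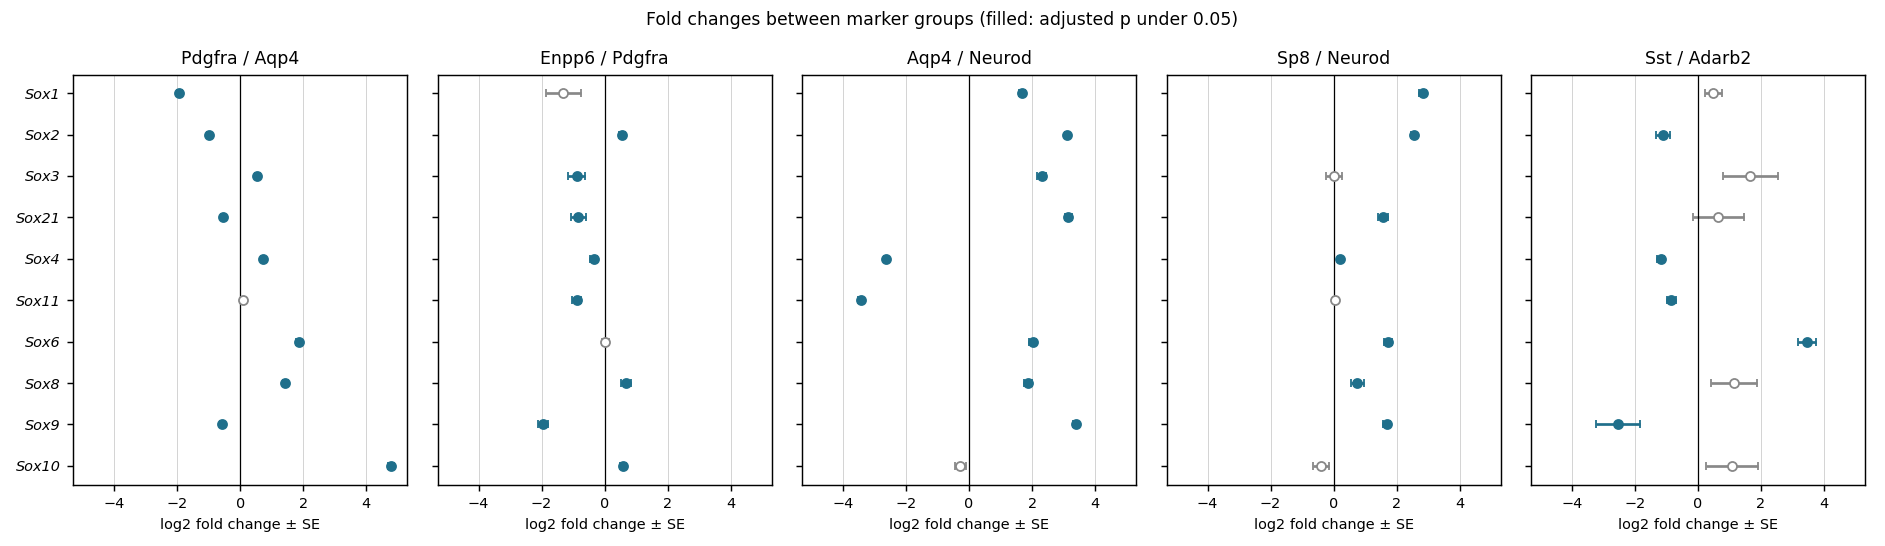
Log2 fold change ± SE of each Sox gene in 5 comparisons of marker groups, filled where the adjusted p was under 0.05. Sox10 stands out at 4.79 between the Pdgfra and Aqp4 groups, Sox4 and Sox11 are the pair to the left between the Aqp4 and Neurod groups, and Sox6 is the 1 filled point to the right between the Sst and Adarb2 groups.

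From the Pdgfra to the Enpp6 group, the SoxE genes parted. Sox9 was lower by a log2 fold change of -1.96 ± 0.17 (adjusted p = 1.26e-12), while Sox8 (0.67 ± 0.15), Sox10 (0.58 ± 0.11) and the SoxB1 gene Sox2 (0.54 ± 0.10) were higher. Sox11 (-0.89 ± 0.16), Sox3 (-0.89 ± 0.27), Sox21 (-0.84 ± 0.24) and Sox4 (-0.35 ± 0.10) were lower, Sox6 was at 0.03 ± 0.12 and Sox1, with 6 UMIs, at a ratio of 0.401 (exact 95% interval 0.147 to 0.875) and an adjusted p of 0.0975. These 8 calls stand beside 18.3% of genes called (8.57% higher, 9.7% lower), with a median of -0.60 against -0.12. The fit took groups of 10 or more cells, a limit lowered after the data had been seen because replicate 1 had 17 Enpp6 cells. DESeq2 called 5 of the 8, losing Sox3, Sox8 and Sox21 (adjusted p = 0.0738, 0.0864 and 0.0729). The Sox4 call was lost without the library block (adjusted p = 0.103), with a gate of 3 UMIs (0.112), without Scrublet doublets (0.0611) and without Reln barcodes (0.128), that of Sox11 with a gate of 3 UMIs (-0.37, adjusted p = 0.0775) and that of Sox3 with a gate of 1 UMI (0.0588). Without replicate 2 Sox21 was at -0.37 and Sox3 at -0.46, and without replicate 1 they were at -1.21 and -1.26.

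Within the Enpp6 group, cells with 2 or more UMIs of Pdgfra (8 and 5 cells) had 164 and 233 CPM of Sox9. Those with fewer (9 and 28) had 15.3 and 28.6. Their Sox10 levels were 367 and 313 against 428 and 365 CPM. In replicate 1, 2 barcodes with Reln carried 302 CPM of Sox9, and without such barcodes the group had 44.9 and 78.2 CPM. Astroglial check markers summed to 2802 and 1283 CPM in the Enpp6 group and 7833 and 7673 in the Pdgfra group. They moved in the same direction as Sox9, and their part in it was not tested. Of the tested myelin programme genes, Erbb3 and Gjb1 passed the filter on low counts only through the Pdgfra group, and the other 8 were all called higher (median 4.01), led by Mag (9.02), Mbp (2544 and 2517 CPM against 39.0 and 40.1) and Myrf (4.52), and 8 of 13 SoxB1 list genes were lower and none higher (median -1.64), led by Nr2e1 (-4.13), Fabp7 (-2.07), Vim (-1.90) and Hes5 (-1.74). Of the 8 Sox9 and Nfi genes, S100b (3.57) was higher and Zcchc24 (-1.03), Mmd2 (-0.97), Nfia (-0.96) and Nfib (-0.62) were lower (median -0.72).

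Dividing cells were set by 3 or more UMIs over Mki67, Top2a, Cenpf, Ccnb1 and Cdk1, and they were deeper than the others of their group (median UMIs 12623 and 13405 against 7952 and 8739 in the Pdgfra group). In the Pdgfra group, dividing cells had 20.7 and 25.7 CPM of Sox1 against 13.8 and 14.4 in the others, and 352 and 424 CPM of Sox11 against 266 and 304. Sox1 (0.73 ± 0.09), Sox11 (0.45 ± 0.04) and Sox2 (0.22 ± 0.03) were higher, and Sox4 (-0.35 ± 0.03), Sox10 (-0.30 ± 0.04), Sox6 (-0.28 ± 0.03) and Sox8 (-0.21 ± 0.04) lower. The SoxC pair thus moved in opposite directions with division. The 7 calls stand beside 45% of genes called (20% higher, 25% lower), with a median of -0.05 against -0.06, and the Sox8 call was lost without the library block (adjusted p = 0.063). Of 9 tested myelin programme genes 8 were lower and none higher (median -0.30), among them Erbb3 (-0.87), Gjb1 (-0.74) and Myrf (-0.50), and 9 of 13 SoxB1 list genes were higher and 1 lower (median 0.21), among them Gli3 (1.27), Pax6 (1.10), Gli2 (1.05) and Prom1 (1.04).

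In the Aqp4 group, dividing cells had 308 and 353 CPM of Sox9 against 452 and 510 in the others (-0.48 ± 0.05). Sox6 (-0.26 ± 0.08) and Sox2 (-0.11 ± 0.04) were also lower, and Sox11 (0.54 ± 0.05) and Sox1 (0.40 ± 0.09) higher, 5 calls beside 36.2% of genes called (20.2% higher, 16% lower), with a median of -0.12 against -0.01. The Sox2 and Sox6 calls were lost without the library block (adjusted p = 0.293 and 0.14). The summed astroglial check markers went the way of Sox9, at 21712 and 22196 CPM in dividing cells and 28940 and 29528 in the others, and their part in it was not tested.

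In the Sp8 group, Sox9 stood at 156 and 153 CPM in dividing cells against 84.3 and 109 in the others (0.76 ± 0.12), and Sox21 at 49.2 and 45.4 against 11.4 and 32.8 (1.13 ± 0.21). The Sox21 fold was 2.20 without replicate 2 and 0.55 without replicate 1. Sox1 (0.59 ± 0.11), Sox2 (0.53 ± 0.07) and Sox11 (0.19 ± 0.04) were higher as well and Sox4 (-0.21 ± 0.04) lower, 6 calls beside 19.4% of genes called (12% higher, 7.4% lower), with a median of 0.43 against 0.00055. The Sox11 and Sox4 calls were lost without the library block (adjusted p = 0.297 and 0.0813). Here the astroglial check markers were lower in dividing cells, at 1208 and 1379 against 1971 and 1702 CPM, and their part in these differences was not tested. Of the SoxB1 list 7 were higher and 1 lower (median 0.61), led by Notch1 (1.30), Prom1 (1.10), Pax6 (0.80) and Pou3f2 (0.77), and of the 5 SoxC targets Tubb3 (-0.74) and Dcx (-0.45) were lower and none higher (median -0.04).

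**Figure D4:**
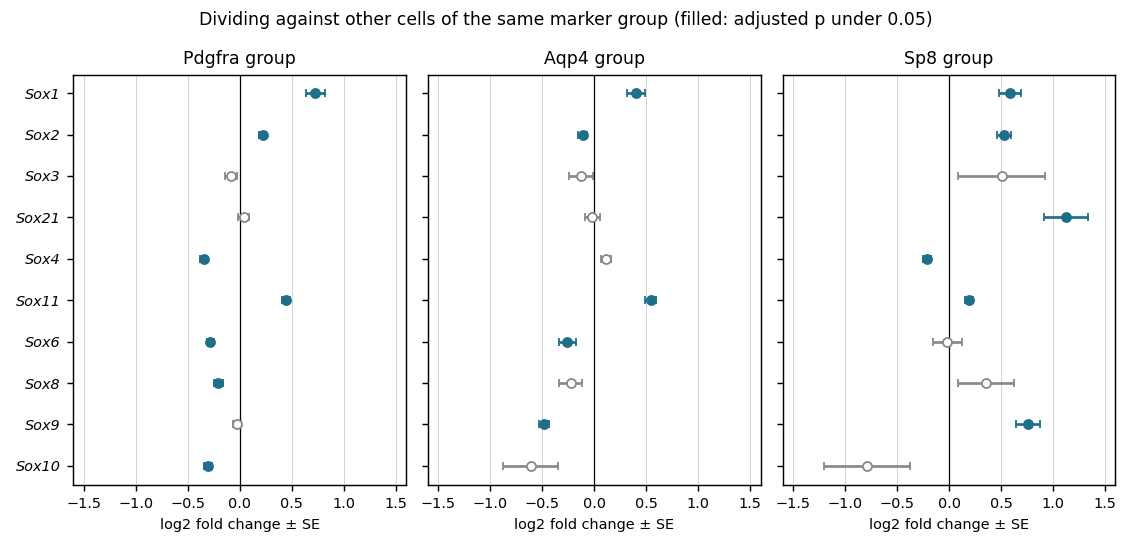
Log2 fold change ± SE of each Sox gene between dividing and other cells of the Pdgfra, Aqp4 and Sp8 groups, filled where the adjusted p was under 0.05. Sox9 lies at -0.03, -0.48 and 0.76 in the 3 groups, while Sox1 and Sox11 are filled to the right in each.

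The difference of the dividing effect between the Pdgfra and Sp8 groups was tested directly. It was -1.09 ± 0.22 for Sox21 (adjusted p = 1.26e-04), -0.78 ± 0.12 for Sox9 (3.98e-07), -0.31 ± 0.08 for Sox2 (0.00295) and 0.26 ± 0.05 for Sox11 (1.63e-04), 4 of 10 called beside 6.95% of genes called (3.12% above and 3.83% below 0), with a median of -0.29 against -0.03. Without the library block the Sox9 difference alone stayed called, with Sox21 at an adjusted p of 0.0657. The Sox21 difference was -2.18 without replicate 2 and -0.50 without replicate 1. For Sox1 the difference was 0.14 ± 0.14 (adjusted p = 0.68).

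Within single cells, pairs of Sox genes were counted after thinning to 2000 UMIs, and the share of cells with both genes was set against the product of their shares. In the Pdgfra group Sox9 and Sox10 were found together in 17.7% and 16.8% of cells, where the products were 17.0% and 16.4%. Sox8 and Sox10 came together in 9.24% and 8.41% (products 8.35% and 7.83%), and Sox4 and Sox11 in 27.5% and 30.0% (25.8% and 29.2%). Over the 45 pairs of that group the ratio ran from 0.936 to 1.27 with a median of 1.01. In the Aqp4 group Sox2 and Sox9 shared 37.7% and 43.5% of cells (products 36.1% and 41.6%), and 38 pairs with at least 20 expected cells had a median ratio of 1.01. The lowest there was Sox1 with Sox3 at 0.525, from 11 cells, and at 4000 UMIs the lowest pair was another. In the Neurod group 94.6% and 95.4% of cells held both Sox4 and Sox11. Ratios near 1 in thinned, sparse counts are no finding for or against joint expression.

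Cells of the Pdgfra group held a mean of 3.49 of the 10 Sox genes at 2000 UMIs, those of the Enpp6 group 3.10, the Sst group 3.58, the Sp8 group 3.14, the Adarb2 group 2.88, the Aqp4 group 2.78, the Eomes group 2.50 and the Neurod group 2.28. Cells of the C1qa group held 0.410, with 65.1% holding none. Thinning left out 5.81% of Pdgfra, 20.4% of Adarb2 and 31.1% of Sst cells as too shallow.

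**Figure D5:**
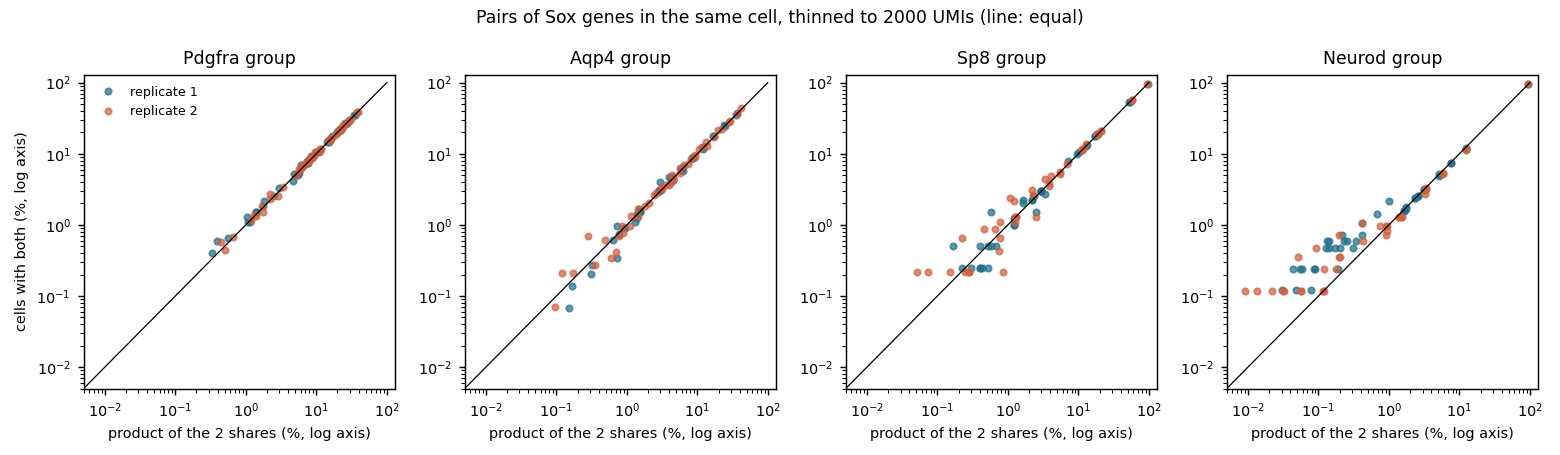
Share of cells holding both genes of a pair (log axis) against the product of the single shares (log axis), 1 point per pair and library, at 2000 UMIs, in the Pdgfra, Aqp4, Sp8 and Neurod groups. Pairs lie along the line of equality. Pairs never found together in a library are not drawn, which favours points above the line at the low end. Those above it at the low end of the Neurod and Sp8 panels rest on few cells.

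Profiles of log2(CPM + 10) were compared among 6071 genes across the 8 groups with 20 or more cells in both libraries. These take in the C1qa group and leave out the Enpp6 group, where Sox10 and Sox8 were highest. The genes most like Sox10 were A930009A15Rik (Pearson r 0.997), Matn4 (0.995) and Bcas1 (0.992). For Sox9 they were Gas1 (0.978), Lsm6 (0.972) and Gnpda2 (0.971), and for Sox2 Mir9-3hg (0.958), Mpdz (0.955) and Tpgs2 (0.950). Sox4 was closest to Tsn (0.997), Mex3a (0.994) and Dbn1 (0.994), and Sox11 to Mex3a (0.991), Gnb1 (0.990) and Cyth2 (0.988). The profile of Sox1 was most like Sox1ot (0.932) and Plcb4 (0.911), that of Sox6 like Mak16 (0.963), Psmg2 (0.953) and Lrrn1 (0.952), and that of Sox3 like Cyp2j6 (0.992), Xylt1 (0.989) and Lpcat1 (0.986). Sox8 was nearest to Cdo1 (0.989), Ncald (0.984) and its antisense neighbour 2810468N07Rik (0.983), and Sox21 to Pdcd5 (0.964), Rcn1 (0.959) and Mphosph10 (0.953). Among the Sox genes themselves the closest pairs were Sox4 with Sox11 (0.981) and Sox3 with Sox8 (0.958), and the pair furthest apart was Sox3 with Sox11 (-0.301). These coefficients describe 8 points that share libraries and free RNA, and carry no test. They do not cover the Enpp6 group. There Bcas1 had a mean of 2640 CPM against at most 183 in any other group. Sox10 had 389 and 354 CPM there against 257 and 241 in the Pdgfra group. From the Pdgfra to the Enpp6 group Sox3 and Sox8 went in opposite directions (-0.89 and 0.67).

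Of the 9 other numbered Sox genes, Sox5, the SoxD relative of Sox6, stood at 159 and 175 CPM in the Pdgfra group and 125 and 137 in the Aqp4 group but at 11.2 and 12.3 in the Sst group, where Sox6 was highest. Those Sst values are 1 UMI in each library, under the 33.6 and 36.9 CPM that 3 UMIs make. Sox5 was called lower in the Sst than in the Adarb2 group (adjusted p = 7.60e-04), on 2 UMIs against 277, a ratio of 0.138 (exact 95% interval 0.0167 to 0.504). Sox12, the third SoxC gene, was 75.6 and 79.0 CPM in the Neurod group and 31.0 and 34.2 in the Aqp4 group, a log2 fold change of -1.11 ± 0.08 between the Aqp4 and Neurod groups. Sox7 reached 4.06 and 4.92 CPM in the Aqp4 group, and Sox13 stayed at or under 11.2 CPM in every group. Sox14, Sox15, Sox17, Sox18 and Sox30 were at or under 1.25 CPM.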

How the data were processed

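The 2 replicate libraries were profiled with the 10x Genomics 3' chemistry. The authors deposited unnormalized UMI counts for each gene in each barcode, which Cell Ranger 6.0.2 wrote per the file headers. The build mm10 and the tools Seurat 4.1.0 and R 4.1.0 stand in the submitters' processing notes, and the sources used here do not give the annotation release. The files held 13858 and 14513 barcodes with 97091962 and 108903409 UMIs, of which 81.0% and 75.6% of barcodes were kept. Doublets were not removed in the main analysis. Scrublet, run in scanpy 1.11.5 with an expected rate of 10%, marked 7.68% and 7.10% of kept barcodes, which were left out as an alternative.

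A marker was positive at 2 UMIs (Sst at 10, C1qa at 5). Barcodes positive for markers of separate groups, or with 3 UMIs of Col1a1 or Cldn5, were in no group, except that Enpp6 with Pdgfra, Eomes with Neurod and Adarb2 with Sp8 were allowed. Barcodes with Eomes and 5 UMIs of Reln, 1 per library, were left out. UMIs were summed per library and group. Sums of groups with at least 20 cells in both libraries were tested in edgeR 4.0.16 (R 4.3.3), with TMM, filterByExpr, the quasi-likelihood test, the library as a block and Benjamini-Hochberg adjustment over all genes at 0.05, in fits of 16 sums (7 residual degrees of freedom), 18 sums (8, Enpp6) and 12 sums (5, dividing cells). The block pairs sums by construction, since those of 1 library come from the same sorted cells. Gate genes, and for dividing cells the 5 genes of that score, stayed out of counts of called genes. CPM is per 1000000 summed UMIs. Python 3.11.15, numpy 2.4.6, pandas 2.3.3 and matplotlib 3.10.9 were used. The edgeR test was tried on simulated counts for the Pdgfra against Aqp4 comparison only, with no library effect simulated. That trial does not cover the other comparisons.

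The Sox genes, groups and gene lists were chosen with earlier results of these data known. From each list, up to 4 called genes with the largest absolute fold change were named per comparison, apart from some that are not reported here, and Nfib in the Enpp6 comparison was added after its value was seen. Most-like genes needed 50 CPM in some group and were sought over 8 groups rather than the planned 10, because the others had too few cells. Alternatives were no block, RLE, DESeq2 1.42.0, no filter on low counts, gates at 1 or 3 UMIs, gates that also ask for 2 check markers, exclusive gates, a 5% mitochondrial limit, doublets removed, dividing cells left out and single libraries.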

Additional observations from a re-analysis of the deposited data

Results flagged for a closer look

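The effect of division differed between the Pdgfra and Sp8 groups for 4 Sox genes, by a test of the difference itself in edgeR with Benjamini-Hochberg adjustment. For Sox21 the log2 difference was -1.09 (an effect of 0.04 in the Pdgfra group against 1.13 in the Sp8 group). That difference was -2.18 without replicate 2 and -0.50 without replicate 1, where the Sp8 effect was 2.20 and 0.55, and its call was lost without the library block (adjusted p = 0.0657), as were those of Sox2 (0.189) and Sox11 (0.51). For Sox9 the difference was -0.78 (-0.03 against 0.76), for Sox2 -0.31 (0.22 against 0.53) and for Sox11 0.26 (0.45 against 0.19). Dividing Sp8 cells had median UMIs of 10105 and 10397 against 5545 and 6159 in the others, and the part of depth in these differences was not tested.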

How the results depend on the processing

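Of 76 calls of single Sox genes, 52 held under every alternative that could be fitted. Among 931 alternative values 33 were no longer called and 1 reversed: Sox21 between the Eomes and Neurod groups, at -0.0907 with a gate of 1 UMI. All 152 folds of these calls computed within 1 library kept their direction, but without a second library they carry no test. The calls were made on the same 2 libraries, so this agreement was largely set beforehand. Without the replicate block 13 values lost their call, and the number of Sox genes called fell to 3 between the Eomes and Neurod groups, to 3 between dividing and other Aqp4 cells, and to 1 for the difference of the dividing effect. The block left every other count of Sox genes within 1.5 times. DESeq2 called 5 Sox genes between the Enpp6 and Pdgfra groups.

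Over all genes, 6212 were called between dividing and other Pdgfra cells, against 3406 without the block and 3431 in DESeq2. For the difference of the dividing effect 959 were called, against 354 without the block and 618 with a gate of 1 UMI. Exclusive gates lowered the count from 3763 to 2307 between the Adarb2 and Neurod groups, and leaving out dividing cells lowered it from 2649 to 1390 between the Eomes and Neurod groups and from 6667 to 4208 between the Sp8 and Neurod groups. The cause was not tested. The share of higher genes among those called went from 42.9% to 57.9% (RLE) and 70.9% (DESeq2) between the Sst and Neurod groups, from 55.8% to 41.5% and 45.4% for dividing Aqp4 cells, from 44.8% to 56.1% and 55.7% for the difference, and in DESeq2 from 44.4% to 55.2% for dividing Pdgfra cells and from 46.9% to 57.5% between the Enpp6 and Pdgfra groups.

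The Sst comparisons with gates of 1 or 3 UMIs or the 5% mitochondrial limit, and the Eomes and Enpp6 comparisons with exclusive gates, could not be fitted for want of cells. Depth limits the Sst group most, where 3 UMIs correspond to 33.6 and 36.9 CPM. Averaging CPM over cells in place of sums moved 25 of 90 levels by more than 1 SD, with ratios from 0.649 to 1.49.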

Other observations

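Sox2ot, the long noncoding transcript that surrounds Sox2, did not follow Sox2 across the groups. It was highest in the Sst group (460 and 738 CPM) and the Adarb2 group (409 and 428 CPM), with 194 and 197 CPM in the Sp8 group, 105 and 115 in the Pdgfra group and 60.3 and 63.3 in the Aqp4 group, where Sox2 was highest. Sox1ot, around Sox1, was 78.5 and 61.5 CPM in the Sst group, 63.1 and 67.9 in the Adarb2 group, 47.8 and 54.2 in the Aqp4 group and 36.0 and 40.0 in the Sp8 group.

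In thinned Neurod cells, some pairs of Sox genes with low shares were found together more often than the product of their shares, on few cells. The 17 Neurod pairs with at least 20 expected cells had ratios from 0.892 to 1.03, with a median of 0.963. The pairs named next were picked for high ratios among those with fewer expected cells. Other such pairs are not listed, and none was tested. Sox2 and Sox6 came together in 21 of 1676 cells (ratio 2.29) and Sox9 with Sox21 in 9 (4.68). Without Scrublet doublets these were 15 of 1612 cells (2.17) and 7 (4.72). In the Sp8 group Sox9 with Sox21 came together in 17 of 856 cells (2.35).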
